A study of Homo sapiens with 36 samples.

Results

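The HOX cluster genes are the 39 genes of the deposited table whose symbol is HOX, a cluster letter from A to D and a number, out of 26475 genes. The HOXA cluster gave 11 genes, HOXB 10, HOXC 9 and HOXD 9. HOX genes encode homeodomain transcription factors that give cells their position along the head-to-tail axis of the embryo and along the limbs. Within each cluster the genes lie in the order in which they are switched on, so low-numbered genes act toward the head and high-numbered genes toward the tail. Polycomb complexes keep silent HOX genes closed, trithorax complexes and retinoic acid receptors open them, and adult epithelia and the tumours that arise from them keep part of this positional code.

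The 36 libraries hold poly-A RNA, read on an Illumina HiSeq instrument, from 3 human cancer cell lines grown in DMEM with 10% serum. MDA-MB-468 cells come from a basal-like tumour of the breast, PANC-1 cells from a carcinoma of the pancreas and WiDr cells from an adenocarcinoma of the colon or rectum. In each line, cells carrying the lentiviral vector pGIPZ with a non-silencing short hairpin RNA (the hairpin control) were set beside cells with targeting hairpin 1 or targeting hairpin 2, and WiDr cells with a non-targeting CRISPR guide RNA (the guide control) beside cells with guide 1 or guide 2. Each of the 12 groups has 3 libraries, called biological replicates in the series' design text, and whether a group was a pool or a clone is not given in the sources used here. For 4 of the 6 libraries with a targeting guide, the genotype field names the other guide. The titles were used here, and the genotype field was run as an alternative. For PANC-1 the second hairpin's samples are written as the libraries labelled hairpin 2.

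Library totals ran from 28371119 to 49237321 counts. Of 10 markers of basal breast epithelium, 9 were at 1 CPM (count scaled to library size) or more in the MDA-MB-468 control. Of 10 pancreatic ductal markers 8 were at that level in PANC-1, and GATA6 was below it. Of 10 colorectal markers 6 reached it in the WiDr hairpin control and 7 in the guide control, and CDX1, CDH17 and GPA33 were among those below it in the hairpin control. Ribosomal RNA took 4.61 to 9.60% of the counts in the PANC-1 controls, against 0.838 to 2.60% in the other 6 PANC-1 libraries. In WiDr it took 5.38 to 10.2% in the libraries of hairpin 2, and 1.27 to 2.71% in the 6 others with hairpins.

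On the genome build GRCh38 the HOXA genes span chr7:27092993-27200106 on the minus strand and the HOXB genes chr17:48528526-48729178 on the minus strand. The HOXC genes span chr12:53938765-54056030 and the HOXD genes chr2:176092891-176190907, both on the plus strand. RefSeq (GRCh38.p14) promoter windows, from 250 bases before a start site to 50 after it, were found for 20 of the 39 genes. There were 27 windows in all, 26 of them distinct. HOXA3 has the most, HOXB1 is the only HOXB gene with a window, and the only HOXC window is shared by HOXC4 and HOXC5. The 5 printed here belong to genes whose levels the results turn on, one or more from each cluster that has windows for such genes. HOXA2 patterns the hindbrain, HOXA9 is a posterior gene best known from leukaemia, HOXA11 patterns the forearm and the uterus, HOXC4 is an anterior trunk gene that shares its window with HOXC5, and HOXD13 patterns the digits and the hindgut. Each window is written 5′ to 3′ on the gene's strand, and capitals mark the motifs searched on both strands.
HOXA2, chr7:27102634-27102933, minus strand: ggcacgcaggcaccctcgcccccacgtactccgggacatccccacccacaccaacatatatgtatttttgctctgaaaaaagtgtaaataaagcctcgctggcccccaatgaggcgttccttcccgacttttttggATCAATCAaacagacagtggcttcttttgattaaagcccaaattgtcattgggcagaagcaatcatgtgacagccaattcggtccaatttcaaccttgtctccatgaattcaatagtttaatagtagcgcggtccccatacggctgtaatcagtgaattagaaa
HOXA9, chr7:27165488-27165787, minus strand: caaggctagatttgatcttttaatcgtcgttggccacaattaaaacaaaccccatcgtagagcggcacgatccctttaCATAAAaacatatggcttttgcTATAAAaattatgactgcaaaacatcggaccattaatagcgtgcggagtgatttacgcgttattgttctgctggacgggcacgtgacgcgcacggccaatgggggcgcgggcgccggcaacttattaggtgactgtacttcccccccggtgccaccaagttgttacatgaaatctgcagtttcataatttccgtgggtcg
HOXA11, chr7:27185183-27185482, minus strand: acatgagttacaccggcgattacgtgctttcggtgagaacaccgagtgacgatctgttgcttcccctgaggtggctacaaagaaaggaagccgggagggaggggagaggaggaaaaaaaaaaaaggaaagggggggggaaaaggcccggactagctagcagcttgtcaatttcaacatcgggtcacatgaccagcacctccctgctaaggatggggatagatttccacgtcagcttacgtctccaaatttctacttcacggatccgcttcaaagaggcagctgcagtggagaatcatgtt
HOXC4, chr12:54016638-54016937, plus strand: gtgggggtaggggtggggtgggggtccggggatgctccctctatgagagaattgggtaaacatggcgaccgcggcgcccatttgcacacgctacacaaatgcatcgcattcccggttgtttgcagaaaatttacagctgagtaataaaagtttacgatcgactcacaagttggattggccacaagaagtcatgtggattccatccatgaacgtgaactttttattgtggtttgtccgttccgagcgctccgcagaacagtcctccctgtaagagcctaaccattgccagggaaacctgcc
HOXD13, chr2:176092471-176092770, plus strand: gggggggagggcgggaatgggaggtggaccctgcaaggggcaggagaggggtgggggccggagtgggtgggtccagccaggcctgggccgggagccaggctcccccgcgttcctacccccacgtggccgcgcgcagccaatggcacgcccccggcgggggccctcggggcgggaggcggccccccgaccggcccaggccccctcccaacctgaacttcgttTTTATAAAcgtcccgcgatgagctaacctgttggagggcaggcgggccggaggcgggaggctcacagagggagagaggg
The capitals in HOXA2 are a PBX-HOX composite motif (TGATNNAT, read on the other strand). Those in HOXA9 are a CDX core (TTTATG, read on the other strand) and a TATA box (TATAAA), and those in HOXD13 are 2 overlapping TATA matches, 1 on each strand. The fourth motif searched, the nuclear receptor motif AGGTCA, is in 0 of the 27 HOX windows and in 13.8% of 35116 windows of all genes. The TATA box is in 18.5% of HOX windows against 11.5% of all, the PBX-HOX composite in 11.1% against 7.40%, and the CDX core in 11.1% against 10.6%. The median observed-over-expected ratio of CpG was 0.85 in the HOX windows and 0.58 in all, at a median GC content of 58% and 58.7%. These shares describe the windows found and not the clusters as a whole. A match describes letters only and is not a measured site.

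HOX transcripts of a cluster overlap one another, and this bears on which member a read was given to. The deposited values are expected counts, in which reads that fit several transcripts are divided among genes by estimate. In 17 of the 39 HOX genes the values were not whole numbers, and in 9 sets of overlapping genes the sum was whole (within 0.02) in all 36 libraries. The sets are HOXA3 with HOXA4 and HOXA-AS2, HOXA6 with HOXA7 and HOXA-AS3, HOXA9 with HOXA10, HOXA10-AS and HOXA10-HOXA9, HOXB3 with HOXB-AS1, HOXB4 to HOXB7 with HOXB-AS3, HOXC4 with HOXC5 and HOXC6, HOXC10 with HOXC-AS3, HOXC13 with HOXC13-AS, and HOXD1 with HAGLR. For these genes the summed value of the set is given beside single genes described below. The closing section counts the results that lose their call or turn sign in the sum. A sum follows its highest members, so where members differ it cannot show whether a single gene changed. The strand setting of the count step is not given in the sources used here, so reads of a HOX gene and an antisense RNA over it cannot be told apart.

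The lines differed in how much HOX RNA they held and in which clusters it came from. HOX genes together took 111 to 121 CPM in the MDA-MB-468 control libraries, 791 to 936 CPM in PANC-1, 666 to 691 CPM in the WiDr hairpin control and 807 to 829 CPM in the WiDr guide control. Per kilobase of transcript, HOXC gave 65.3% of the HOX level in MDA-MB-468, HOXA 19.7%, HOXB 15.01% and HOXD none. In PANC-1 HOXB gave 51.7% and HOXC 42.3%, with 5.76% from HOXA and 0.297% from HOXD. In WiDr HOXB gave 60.0%, HOXA 28.4%, HOXC 11.1% and HOXD 0.512% in the hairpin control, and the guide control gave 57.6, 28.6, 13.2 and 0.598% in the same order. So both WiDr controls had the same order of clusters, and it differed from those of the other lines. A level of 1 CPM or more was reached by 15 HOX genes in the MDA-MB-468 control, 22 in PANC-1, 26 in the WiDr hairpin control and 27 in the guide control. In all 4 controls 11 genes reached it, among them HOXA3, HOXA5, HOXB3, HOXB4, HOXB7, HOXC4, HOXC6, HOXC8, HOXC9 and HOXC13. In none of them did HOXB1, HOXC12 and 8 HOXD genes (HOXD1, HOXD3, HOXD4 and HOXD8 to HOXD12) reach it.

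**Figure D1:**
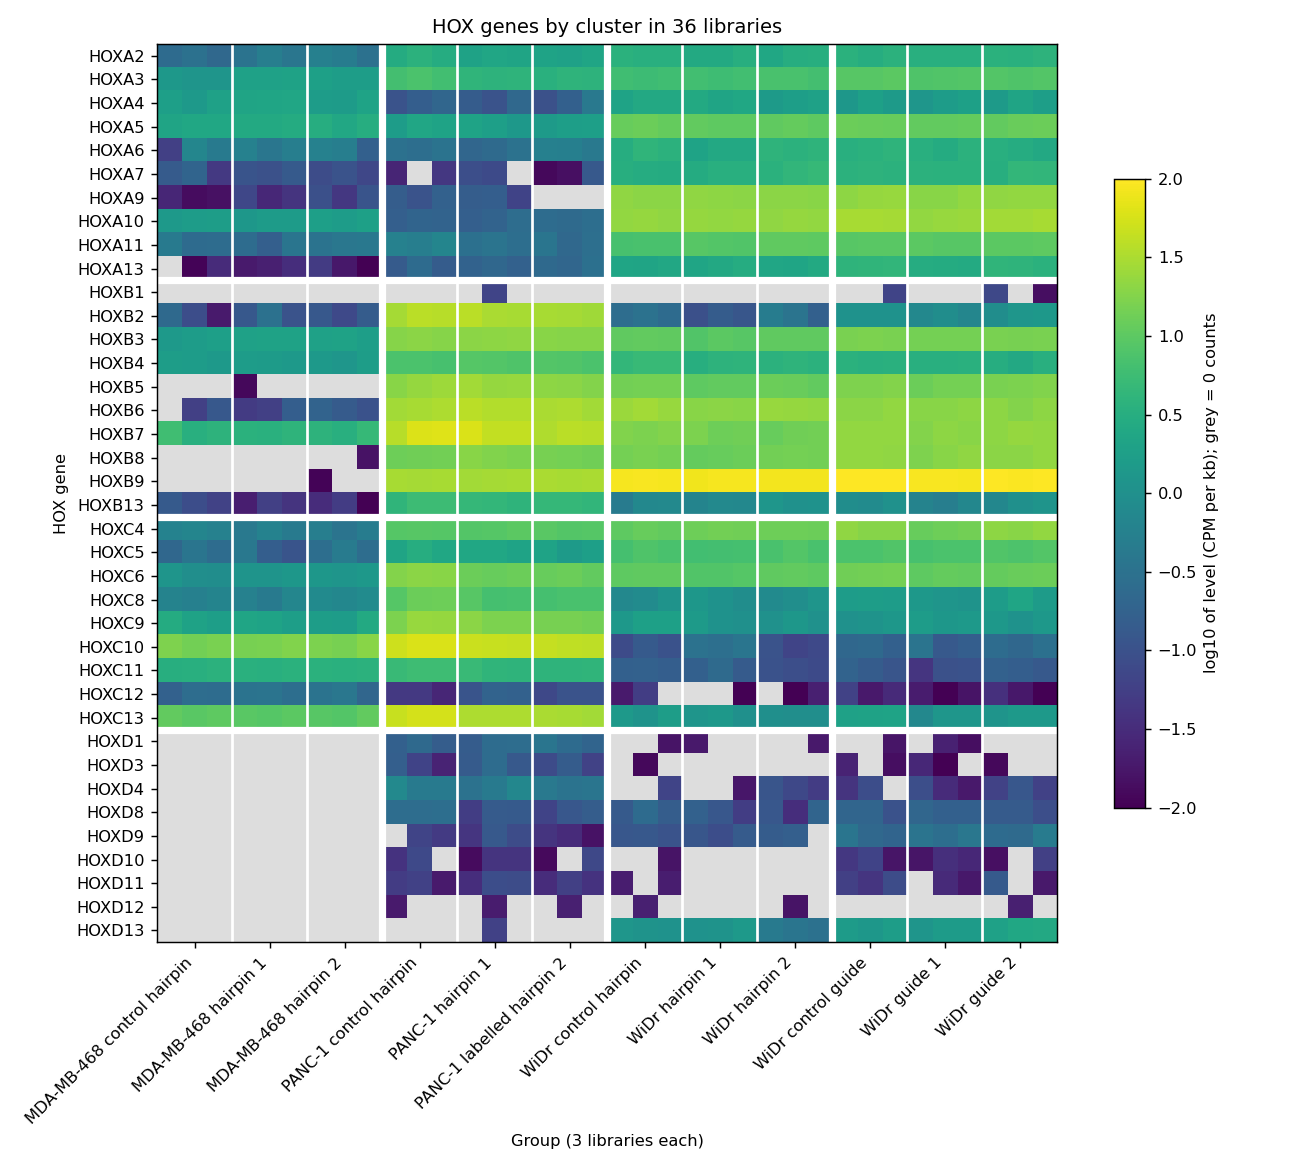
The heat map shows the level of the HOX genes (rows, by cluster) in each of the 36 libraries (columns, by group) as CPM per kilobase on a log10 colour scale, with grey for a count of 0. HOXD is grey throughout MDA-MB-468, and HOXB9 is the brightest gene in WiDr.

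Per kilobase, the genes at the top differed from line to line. In MDA-MB-468 HOXC10, a lumbar and hindlimb gene, led at 15.5 ± 1.27 CPM per kilobase (SD, n = 3), followed by HOXC13, a gene of hair and nail keratinocytes, at 10.2 ± 0.633. The library ranges of these neighbours did not overlap. In PANC-1 HOXC10 (55.4 ± 5.56 CPM per kilobase), HOXB7 (53.9 ± 14.9) and HOXC13 (52.6 ± 4.89) overlapped in their ranges and could not be ordered. In WiDr HOXB9, which patterns the ribs and thoracic spine, led at 89.2 ± 1.76 CPM per kilobase in the hairpin control and 99.6 ± 1.67 in the guide control. HOXB6, at 25.7 ± 1.74 CPM per kilobase, came next in the hairpin control, and HOXA10, at 29.6 ± 0.649, in the guide control. The places below HOXB9 can change with the transcript length used. Coding transcripts ran from 1660 to 1960 bases for HOXB6 and from 1570 to 2541 for HOXA10, and the longest was used for each. Both genes also take divided reads.

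**Figure D2:**
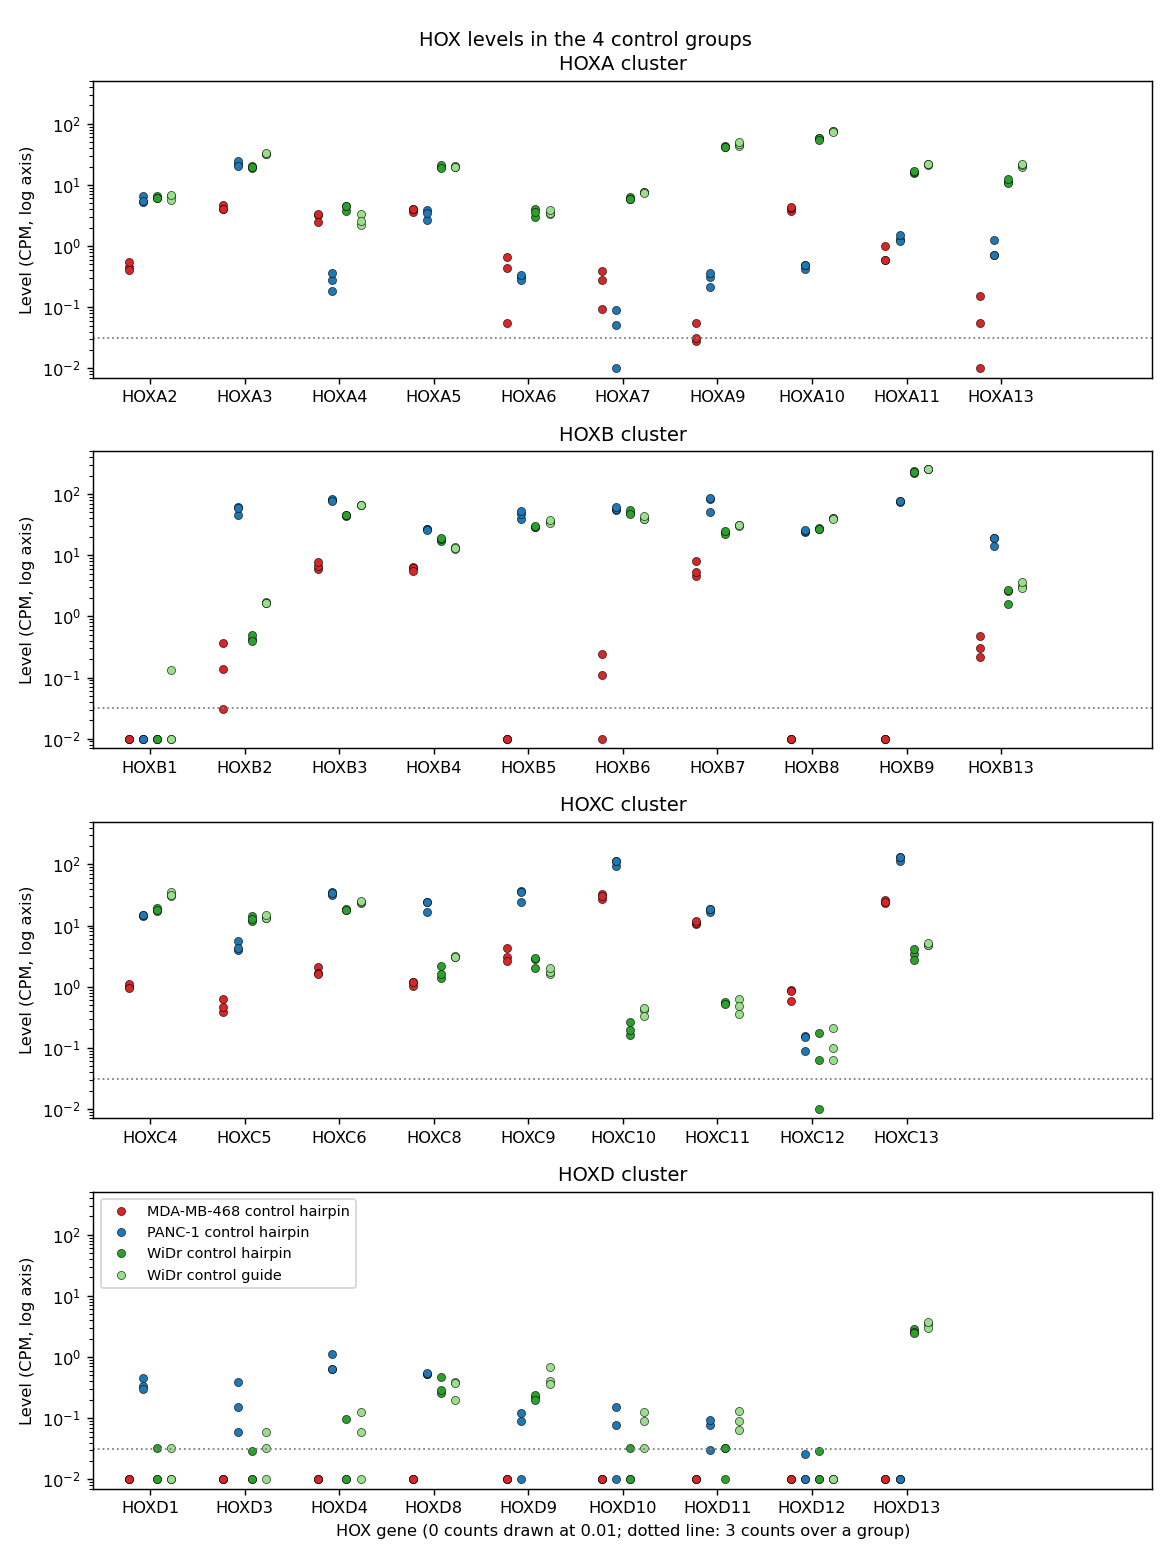
Points give the CPM (log axis) of each library of the 4 control groups for the HOX genes, in one panel per cluster in the order of the gene numbers, with a count of 0 drawn at 0.01 and a dotted line at 3 counts over a group. MDA-MB-468 lies lowest for most of HOXB and at 0 for HOXD, and WiDr lies lowest for HOXC10, HOXC11 and HOXC13.

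The posterior HOXB genes separated MDA-MB-468 from the other lines. HOXB9 had 0 counts in the 3 MDA-MB-468 control libraries, 78.5, 74.9 and 77.1 CPM in PANC-1, 225, 234 and 231 CPM in the WiDr hairpin control and 257 ± 4.304 CPM (SD, n = 3) in the WiDr guide control. HOXB8, a trunk gene, had 0 counts in MDA-MB-468, 23.9, 24.7 and 25.8 CPM in PANC-1 and 26.6, 28.2 and 26.8 CPM in WiDr. Against the floor of 3 counts over the group, HOXB9 was at least 2666-fold higher in PANC-1 than in MDA-MB-468 and at least 7989-fold higher in WiDr, and HOXB8 at least 861-fold and 945-fold higher. HOXB5, an anterior trunk and enteric neural crest gene, also had 0 counts in MDA-MB-468, with 39.1, 48.1 and 52.4 CPM in PANC-1 and 28.98, 29.3 and 29.7 CPM in WiDr. HOXB6 was at 0, 0.111 and 0.247 CPM in MDA-MB-468, 55.3, 57.8 and 62.4 CPM in PANC-1, with 49.3, 54.3 and 47.8 in WiDr. HOXB5 and HOXB6 take divided reads, and the sum of their set (HOXB4 to HOXB7 with HOXB-AS3) was higher by 4.09 (log2) in PANC-1 than in MDA-MB-468 and by 3.41 in WiDr (adjusted p = 1.59e-08 and 4.30e-08, edgeR quasi-likelihood test).

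Among the other HOXB genes, HOXB7 was at 8.08, 4.61 and 5.31 CPM in MDA-MB-468, 50.3, 84.3 and 86.999 CPM in PANC-1, with 23.8, 22.2 and 24.7 in WiDr. The 3 lines did not overlap. HOXB3, a hindbrain gene, was at 6.0004, 6.77 and 7.74 CPM in MDA-MB-468, 79.9, 84.1 and 78.3 CPM in PANC-1, with 44.4, 45.7 and 44.9 in WiDr. It was higher in PANC-1 than in MDA-MB-468 by 3.49 ± 0.11 (log2 ± SE, adjusted p = 5.96e-09). HOXB4, known for the growth of blood stem cells, was at 5.94 ± 0.457, 26.9 ± 0.738 and 18.1 ± 0.999 CPM in the same order. HOXB2, another hindbrain gene, was at 0.178 ± 0.1703 CPM in MDA-MB-468, 54.9 ± 7.84 in PANC-1 and 0.437 ± 0.0578 in WiDr, a log2 difference of -6.89 ± 0.33 between WiDr and PANC-1 (adjusted p = 8.11e-08). HOXB13, a gene of the prostate and hindgut that lies apart from the rest of the cluster, was at 0.333 ± 0.133, 17.5 ± 2.86 and 2.27 ± 0.601 CPM.

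The posterior HOXA genes stood highest in WiDr. HOXA10, which patterns the uterus and lumbar spine, was at 3.76, 4.14 and 4.29 CPM in MDA-MB-468, 0.416, 0.489 and 0.481 CPM in PANC-1, with 57.5, 58.5 and 55.1 in WiDr. HOXA9 was at 0.0561, 0.0278 and 0.0308 CPM in MDA-MB-468, 0.312, 0.214 and 0.361 CPM in PANC-1, with 43.9, 42.2 and 42.3 in WiDr. The 3 lines did not overlap for either gene. WiDr exceeded PANC-1 by 6.998 ± 0.13 (log2) for HOXA10 and 7.21 ± 0.17 for HOXA9 (adjusted p = 4.66e-10 and 1.25e-09), and their summed set by 7.12. Between PANC-1 and MDA-MB-468 the fitted values of HOXA9 (2.77) and HOXA10 (-3.20) had opposite signs, and the summed set gave -2.36. HOXA10 was far above HOXA9 in MDA-MB-468, so the sum cannot show whether HOXA9 itself differed. HOXA11 was at 0.726 ± 0.245, 1.34 ± 0.156 and 16.3 ± 0.516 CPM in the lines as ordered above. HOXA13, which patterns the distal limb and hindgut, was at 0.0699 ± 0.0781, 0.892 ± 0.313 and 11.6 ± 0.921 CPM.

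Among the lower-numbered HOXA genes described here, HOXA2 and HOXA3 were close in PANC-1 and WiDr. HOXA4 to HOXA7 had their highest mean in WiDr, as the posterior genes did. HOXA2 was at 0.468 ± 0.0789 CPM in MDA-MB-468, 5.78 ± 0.773 in PANC-1 and 6.22 ± 0.237 in WiDr. HOXA3, which patterns the pharyngeal pouches, was at 4.28 ± 0.327, 22.5 ± 2.22 and 19.7 ± 0.782 CPM in the same order. Between WiDr and PANC-1 the log2 differences were 0.17 for HOXA2 and -0.14 for HOXA3, and neither passed, while both lines were above MDA-MB-468. HOXA4 was at 3.02 ± 0.486, 0.273 ± 0.0894 and 4.25 ± 0.475 CPM. Its lower value in PANC-1 than in MDA-MB-468 (-3.54 on the log2 scale) turned to 1.44 for the sum of HOXA3, HOXA4 and HOXA-AS2. HOXA3 was above HOXA4 in both lines, so the sum cannot show whether HOXA4 itself differed. HOXA5, a gene of lung and breast epithelium, was at 3.89 ± 0.217, 3.35 ± 0.624 and 19.7 ± 1.02 CPM. HOXA6 was at 3.57 ± 0.5101 CPM and HOXA7 at 6.08 ± 0.305 CPM in WiDr, and both were below 1 CPM in the other lines.

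HOXC ran the other way, with its posterior genes high in MDA-MB-468 and PANC-1. HOXC10 was at 32.2, 27.3 and 30.2 CPM in MDA-MB-468, 94.9, 114 and 113 CPM in PANC-1, with 0.161, 0.266 and 0.195 in WiDr. HOXC13 was at 26.2, 23.1 and 24.6 CPM in MDA-MB-468, 114, 134 and 134 CPM in PANC-1, with 3.48, 2.71 and 4.07 in WiDr. The lines did not overlap for either gene. WiDr was lower than MDA-MB-468, with log2 differences of -7.15 ± 0.18 for HOXC10 and -2.87 ± 0.15 for HOXC13 (adjusted p = 2.58e-09 and 1.42e-07). HOXC11, which lies between them, was at 11.2 ± 0.754, 18.04 ± 1.23 and 0.543 ± 0.0205 CPM in the lines as ordered above. The anterior members were lowest in MDA-MB-468. HOXC4 was at 0.981, 1.11 and 0.956 CPM in MDA-MB-468, 14.5, 15.01 and 14.8 CPM in PANC-1, with 17.1, 19.7 and 17.96 in WiDr. HOXC6, a brachial and mammary gene, was at 2.103, 1.67 and 1.604 CPM in MDA-MB-468, 31.6, 34.9998 and 33.7 CPM in PANC-1, with 17.6, 18.5 and 18.02 in WiDr. Between WiDr and PANC-1 HOXC4 differed by 0.36, HOXC5 by 1.55 and HOXC6 by -0.83 on the log2 scale. Their sum differed by -0.04 (adjusted p = 0.68998), so these calls did not hold for the summed reads. A sum of members that differ in opposite directions cannot show which of them changed. HOXC5 was at 4.61 ± 0.848 CPM in PANC-1 and 12.9 ± 1.25 in WiDr. HOXC8, a brachial gene, was at 1.14 ± 0.0951, 21.7 ± 4.35 and 1.72 ± 0.389 CPM, and HOXC9, a thoracic gene, at 3.33 ± 0.882, 32.1 ± 6.78 and 2.596 ± 0.4899 CPM.

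HOXD was close to silent at this depth. All 9 HOXD genes had 0 counts in all 9 MDA-MB-468 libraries, which hold 307596691 counts and allow up to 0.00938 CPM. In the PANC-1 control HOXD4 was the highest at 0.797 ± 0.278 CPM, and HOXD8, a trunk gene, was at 0.527 ± 0.0124 CPM. In WiDr HOXD13 was the exception, at 2.84, 2.54 and 2.44 CPM in the hairpin control and 3.52, 2.95 and 3.77 CPM in the guide control. It had 0 counts in the PANC-1 and MDA-MB-468 controls, and was at least 90.7-fold and 90.4-fold higher in the WiDr hairpin control against their floors. A lower level in bulk RNA can come from fewer cells that express a gene or from less RNA per cell, and these cannot be told apart.

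By edgeR's quasi-likelihood test with Benjamini-Hochberg adjustment over all genes, at an adjusted p under 0.05, 25 of 32 HOX genes tested were higher and 4 lower in the PANC-1 control than in MDA-MB-468, where 69.5% of all genes passed (34.8% higher, 34.7% lower). In WiDr against MDA-MB-468 23 were higher and 5 lower of 32, where 71.7% of all genes passed (34.9% higher, 36.9% lower). In WiDr against PANC-1 12 were higher and 14 lower of 32, against 72.6% of all (34.9% higher, 37.6% lower). The shares that passed were 29, 28 and 26 of 32 genes, above the background in each case, in comparisons that share their control libraries. Of these calls 26, 27 and 21 held in every alternative setting. The median HOX log2 difference was 3.15 for PANC-1 and 3.23 for WiDr over MDA-MB-468, and -0.33 for WiDr over PANC-1, and these medians stay the same with the genes at 0 counts set to their bounds. Over all genes tested the median lay between -0.02 and 0.02 in every comparison, of controls and of constructs. All 9 tested HOXB genes were higher in PANC-1 than in MDA-MB-468, and 8 of 9 were higher in WiDr. Against PANC-1, WiDr was higher for 8 of 11 HOXA genes and lower for 6 of 9 HOXB and 6 of 9 HOXC genes. Line, culture and library preparation cannot be told apart in these comparisons.

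With the hairpins in MDA-MB-468, few HOX genes passed. Hairpin 1 raised 1 of 21 tested HOX genes and lowered none, where 2.27% of all genes passed (1.24% higher, 1.03% lower). Hairpin 2 changed 0 of 21, where 3.49% of all genes passed (1.69% higher, 1.8% lower). With both hairpins 0 HOX genes passed in 1 direction, where 1.31% of all genes did (0.744% higher, 0.567% lower). For hairpin 2, 3 HOX genes were at an unadjusted p under 0.05 and DESeq2 called 1. One fit of all 36 libraries called 2 HOX genes with hairpin 1 and 4 with hairpin 2. The gene that passed with hairpin 1, named here because it was the single call, was HOXA3. Its libraries were at 4.65, 4.11 and 4.07 CPM in the control, 6.65, 6.49 and 6.93 with hairpin 1 and 6.28, 5.74 and 5.68 with hairpin 2. Neither hairpin's libraries overlapped the control. The log2 fold change was 0.62 ± 0.11 with hairpin 1 (adjusted p = 0.0199) and 0.44 ± 0.11 with hairpin 2 (adjusted p = 0.065005). The call for hairpin 1 passed in 7 of 12 alternatives (adjusted p up to 0.107). It was lost without control replicate 2 or 3, without any 1 of the hairpin 1 libraries, and for the sum of HOXA3, HOXA4 and HOXA-AS2 (0.44, adjusted p = 0.0917).

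In PANC-1 HOXA2, HOXA3, HOXA11, HOXC6, HOXC8, HOXC13 and HOXD8 were lower in both hairpin groups than in the control. Hairpin 1 raised 4 and lowered 8 of 32 tested HOX genes, where 30.2% of all genes passed (16.2% higher, 14% lower). The libraries labelled hairpin 2 had 1 gene higher and 12 lower, where 33.4% of all genes passed (16.7% higher, 16.7% lower). The shares of lower calls, 8 and 12 of 32, stand above the background of lower calls, and the shares of higher calls, 4 and 1 of 32, below it. The median HOX log2 fold change was -0.15 with hairpin 1 and -0.26 with the libraries labelled hairpin 2. By cluster, hairpin 1 lowered 4 of 10 HOXA and 3 of 9 HOXC genes and raised 3 of 9 HOXB genes, and the libraries labelled hairpin 2 were lower in 5 of 10 HOXA and 6 of 9 HOXC genes with 0 of 9 HOXB genes called. Of the HOXB genes raised by hairpin 1, HOXB4 and HOXB6, named after their values were seen, take divided reads. Their summed set gave a log2 fold change of 0.07 (adjusted p = 0.709), so those calls did not hold for the summed reads. The set also holds HOXB5 (0.15) and HOXB7 (-0.14), so the sum cannot show whether HOXB4 or HOXB6 itself rose. HOXB8, the other gene raised and also named after its values were seen, gave 0.40 and takes no divided reads. Both comparisons use the same control libraries. Ribosomal RNA, given above, differed between the PANC-1 controls and the other libraries, and with those genes left out 10 and 13 HOX genes passed. Its part in the result was otherwise not tested. Without single libraries the count for hairpin 1 ran from 7 to 15, with 7 without control replicate 3 or without hairpin 1 replicate 3.

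Of the HOX genes in PANC-1, 9 passed with both hairpin groups in the same direction, 8 lower and 1 higher, where 11.1% and 12.7% of all genes did so. HOXA3 was at 22.02, 24.9 and 20.5 CPM in the control, 14.2, 13.2 and 13.5 with hairpin 1 and 11.7, 13.4 and 13.1 in the libraries labelled hairpin 2. It fell, with log2 fold changes of -0.71 ± 0.10 and -0.81 ± 0.10 (adjusted p = 0.000742 and 0.000326), with no overlap, and the sum of its set gave -0.77 and -0.86. HOXA2, the ninth gene by size and named after its values were seen, gave -0.55 ± 0.13 and -0.60 ± 0.13. HOXA11 was at 1.33, 1.19 and 1.504 CPM in the control, 0.699, 0.804 and 0.629 with hairpin 1 and 0.8197, 0.524 and 0.669 in the libraries labelled hairpin 2. Its fold changes were -0.90 ± 0.22 and -0.98 ± 0.23 (adjusted p = 0.0148 and 0.0101), and the call for hairpin 1 was lost without control replicate 3 or hairpin 1 replicate 3 (adjusted p up to 0.0541).

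HOXC gave 4 of the shared calls. HOXC13 was at 114, 134 and 134 CPM in the control, 78.7, 77.2 and 78.5 with hairpin 1 and 74.5, 71.6 and 68.7 in the libraries labelled hairpin 2. The 3 groups did not overlap, and the log2 fold changes were -0.69 ± 0.09 and -0.82 ± 0.09 (adjusted p = 0.000387 and 0.000133). The sum with HOXC13-AS gave -0.73 and -0.87. HOXC6 was at 31.6, 34.9998 and 33.7 CPM in the control, 22.1, 20.6 and 21.6 with hairpin 1 and 20.2, 22.02 and 19.1 in the libraries labelled hairpin 2. It fell, with log2 fold changes of -0.63 ± 0.08 and -0.70 ± 0.08 (adjusted p = 0.000588 and 0.000290), while HOXC4 beside it gave 0.03 and 0.01. The sum of HOXC4, HOXC5 and HOXC6 fell, with log2 fold changes of -0.38 and -0.46. HOXC8 gave -0.58 ± 0.17 and -0.72 ± 0.17 from 21.7 ± 4.35 CPM in the control, and passed in 7 of 12 and 11 of 12 alternatives. HOXC12, at 0.133 ± 0.0371 CPM in the control, 0.519 ± 0.137 under hairpin 1 and 0.316 ± 0.0582 in the libraries labelled hairpin 2, was the gene higher with both (1.94 ± 0.38 and 1.22 ± 0.40). Its second call passed in 2 of 12 alternatives (adjusted p up to 0.143).

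HOXD8 was at 0.5201, 0.5196 and 0.541 CPM in the PANC-1 control, 0.104, 0.268 and 0.262 with hairpin 1 and 0.124, 0.233 and 0.291 in the libraries labelled hairpin 2. It gave -1.30 ± 0.40 and -1.29 ± 0.41 on the log2 scale (adjusted p = 0.0369 and 0.0368). At this level the calls passed in 6 of 12 and 7 of 12 alternatives, with adjusted p up to 0.08898 and 0.1303. Of the genes called with both hairpin groups, HOXC12 and HOXD8 lay below 1 CPM in the control. HOXA9, named after its values were seen, had 0 counts in the libraries labelled hairpin 2 against 0.312, 0.214 and 0.361 CPM in the control, at least 10.7-fold lower against the floor of 3 counts over the group. The sum of HOXA9, HOXA10, HOXA10-AS and HOXA10-HOXA9 gave 0.07 (adjusted p = 0.836), so the lower value of HOXA9 did not hold for the summed reads. Of the calls in PANC-1, 7 of 12 with hairpin 1 and 8 of 13 with the libraries labelled hairpin 2 held in every alternative.

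**Figure D3:**
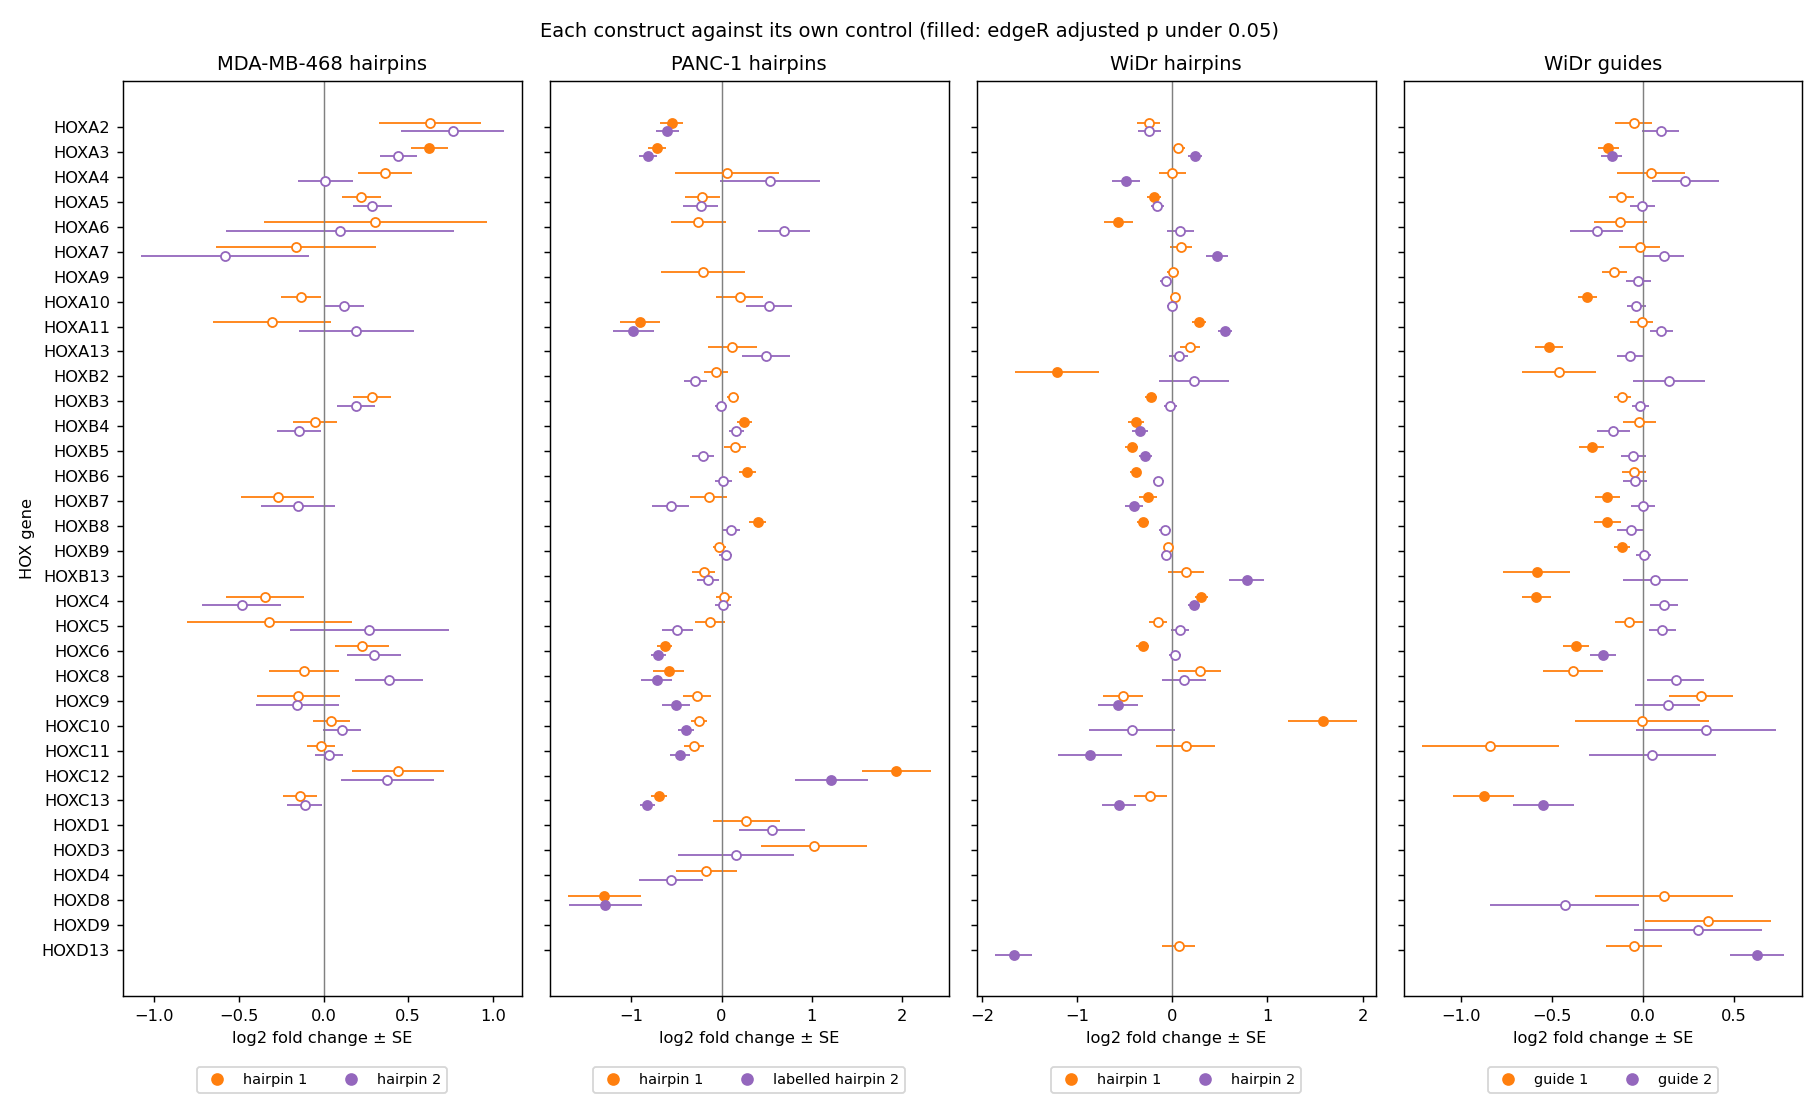
Points give the log2 fold change of tested HOX genes against the control of its experiment with its standard error, for each construct, in one panel per experiment, and filled points have an adjusted p under 0.05. PANC-1 shows filled points below 0 in HOXA and HOXC, MDA-MB-468 has 1 filled point, and the HOXA9 value in the libraries labelled hairpin 2 is not drawn.

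In WiDr hairpin 1 raised 3 and lowered 10 of 29 tested HOX genes, where 48% of all genes passed (24.1% higher, 23.9% lower). Hairpin 2 raised 5 and lowered 8, where 44.7% of all genes passed (22.2% higher, 22.5% lower). The totals of 13 of 29 thus lie near the background. With hairpin 1 the share of lower calls stands above its background and the share of higher calls below it. Median log2 fold changes of HOX genes were -0.15 and -0.07. By cluster, hairpin 1 raised 1 and lowered 2 of 11 HOXA genes, lowered 7 of 9 HOXB genes, and raised 2 and lowered 1 of 8 HOXC genes. Hairpin 2 raised 3 and lowered 1 of 11 HOXA genes, raised 1 and lowered 3 of 9 HOXB genes, raised 1 and lowered 3 of 8 HOXC genes, and lowered the 1 tested HOXD gene. With both hairpins 5 genes passed in the same direction, 3 lower and 2 higher, where 12.9% and 12.3% of all genes did so, and the 2 comparisons share their controls. Without control replicate 3 the count for hairpin 2 was 8, and one fit of all 36 libraries gave 8 for hairpin 1. Of the calls, 6 of 13 with hairpin 1 and 5 of 13 with hairpin 2 held in every alternative.

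HOXB5 was at 28.98, 29.3 and 29.7 CPM in the WiDr hairpin control, 20.6, 22.6 and 22.1 with hairpin 1 and 25.9, 24.8 and 21.9 with hairpin 2. Both hairpin groups lay below every control library. The log2 fold changes were -0.43 ± 0.07 (adjusted p = 0.000104) and -0.29 ± 0.07 (adjusted p = 0.003003). HOXB4 gave -0.38 ± 0.08 and -0.34 ± 0.08 from 18.1 ± 0.999 CPM, and HOXB7 -0.26 ± 0.09 and -0.40 ± 0.09 from 23.6 ± 1.296 CPM. The sum of their set fell, with log2 fold changes of -0.36 and -0.22 (adjusted p = 8.63e-06 and 0.000782). The HOXB7 call with hairpin 1 was lost without control replicate 1 or 3 and without hairpin 1 replicate 2 or 3 (adjusted p up to 0.277). HOXB9, the highest HOX gene of the line, gave -0.04 ± 0.04 and -0.07 ± 0.04 and passed with neither hairpin.

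HOXA11 was at 15.7, 16.5 and 16.6 CPM in the hairpin control, 21.4, 19.3 and 18.6 with hairpin 1 and 24.3, 24.4 and 23.3 with hairpin 2. The 3 groups did not overlap. It rose by 0.28 ± 0.07 and 0.55 ± 0.07 (log2, adjusted p = 0.00479 and 1.78e-05), where in PANC-1 it had fallen. Its antisense RNA HOXA11-AS rose by 0.65 and 0.54, and without a stated strand setting the reads of the pair cannot be told apart. HOXC4 gave 0.31 ± 0.07 and 0.23 ± 0.07 from 17.1, 19.7 and 17.96 CPM. The sum of HOXC4, HOXC5 and HOXC6 gave -0.01 and 0.12 (adjusted p = 0.866 and 0.107), so the HOXC4 calls did not hold for the summed reads.

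HOXD13 fell with hairpin 2. Its libraries were at 2.84, 2.54 and 2.44 CPM in the control, 2.49, 2.53 and 3.11 with hairpin 1 and 0.972, 0.792 and 0.707 with hairpin 2. All hairpin 2 libraries lay below every control library, and the log2 fold change was -1.67 ± 0.20 (adjusted p = 5.60e-06), while hairpin 1 gave 0.07 ± 0.17 (adjusted p = 0.765). The difference between the hairpins was not tested. Ribosomal RNA was higher in the hairpin 2 libraries than in the others, and with those genes left out the adjusted result passed as well, as in 12 of 12 alternatives. HOXC10, named after its values were seen, gave 1.58 ± 0.36 with hairpin 1 (adjusted p = 0.00194) from 0.161, 0.266 and 0.195 CPM to 0.624, 0.558 and 0.701 CPM, and its sum with HOXC-AS3 gave 1.58.

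**Figure D4:**
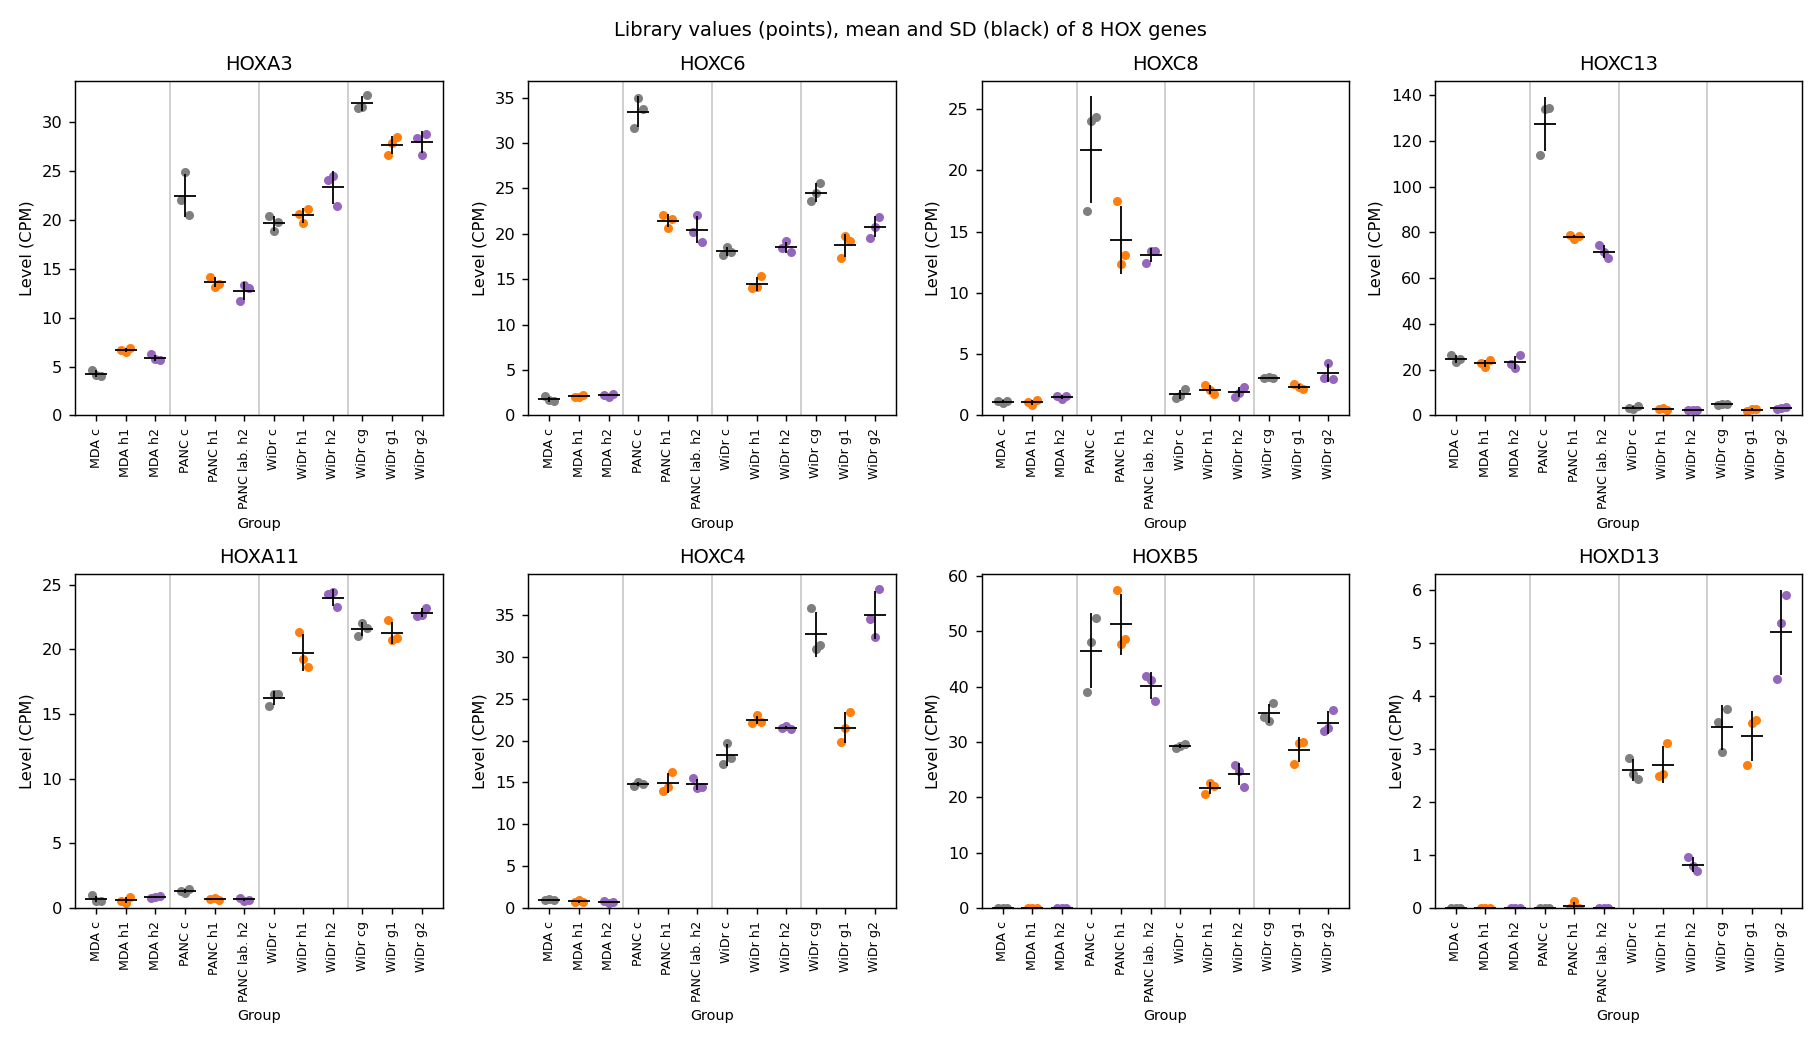
Points give the CPM of each library for 8 HOX genes in the 12 groups, with bars for the mean and the SD of 3 libraries. HOXA3, HOXC6 and HOXC13 lie below their control in both PANC-1 hairpin groups, and HOXD13 lies below its control with hairpin 2 in WiDr.

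With guides in WiDr the HOX genes that passed were mostly lower. Guide 1 lowered 11 of 31 tested HOX genes and raised none, where 41.6% of all genes passed (21.4% higher, 20.3% lower). Guide 2 raised 1 and lowered 3, where 25.5% of all genes passed (14.1% higher, 11.3% lower). The share of lower calls with guide 1 stands above its background and the share of higher calls with both guides below it. The totals with both guides lie below their background. The median log2 fold change of HOX genes was -0.12 with guide 1 and 0.00 with guide 2. By cluster, guide 1 lowered 3 of 11 HOXA, 5 of 9 HOXB and 3 of 8 HOXC genes. With the libraries grouped by the genotype field the counts were 1 for guide 1 and 0 for guide 2, so these counts rest on the titles. Of the calls, 1 of 11 with guide 1 and 0 of 4 with guide 2 held in every alternative. Without control replicate 3 guide 1 gave 6 calls, and without guide 1 replicate 1 it gave 7. Guide 2 gave 1 or 2 calls without any 1 of the controls and 1 without guide 2 replicate 1 or 2.

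With both guides 3 HOX genes were lower and none higher, where 6.26% and 8.48% of all genes were, and the 2 comparisons share their controls. HOXC13 was at 4.77, 4.83 and 5.09 CPM in the guide control, 1.76, 3.02 and 3.04 with guide 1 and 2.86, 3.45 and 3.59 with guide 2. Neither guide's libraries overlapped the control. It fell, with log2 fold changes of -0.88 ± 0.17 and -0.55 ± 0.17 (adjusted p = 0.000519 and 0.0232), and gave -0.88 and -0.52 when summed with HOXC13-AS. The call for guide 2 passed in 7 of 13 alternatives. HOXC6 was at 23.6, 24.5 and 25.6 CPM in the guide control, 17.3, 19.8 and 19.2 with guide 1 and 19.6, 20.8 and 21.9 with guide 2. Its log2 fold changes were -0.37 ± 0.07 and -0.22 ± 0.07. The sum of HOXC4, HOXC5 and HOXC6 gave -0.40 and 0.01 (adjusted p = 4.74e-05 and 0.946), so the call for guide 2 did not hold for the summed reads. HOXA3 was at 31.5, 31.5 and 32.8 CPM in the guide control, 26.7, 27.9 and 28.5 with guide 1 and 28.4, 26.7 and 28.8 with guide 2. Its log2 fold changes were -0.19 ± 0.06 and -0.17 ± 0.06 (adjusted p = 0.0159 and 0.0425), and the summed set gave -0.17 and -0.13 (adjusted p = 0.0302 and 0.1105). The guide 2 call passed in 6 of 13 alternatives and was lost without any 1 of the controls.

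HOXD13, the single gene higher with guide 2, was at 3.52, 2.95 and 3.77 CPM in the guide control, 2.704, 3.5001 and 3.55 with guide 1 and 4.34, 5.39 and 5.91 with guide 2. All guide 2 libraries lay above every control library. It rose by 0.63 ± 0.15 (log2, adjusted p = 0.00544) and passed in 11 of 13 alternatives, while guide 1 gave -0.05 ± 0.15. With the libraries grouped by the genotype field HOXD13 did not pass with guide 2, so this call rests on the titles. By the titles, HOXD13 was thus lower with hairpin 2 and higher with guide 2 in one line.

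The effect of the guides and that of the hairpins in WiDr, each as the mean of 2 constructs against its own control, differed for 10 of 31 HOX genes, 4 more positive with guides and 6 more negative, where 41.6% of all genes passed (22% and 19.6%). The difference was 1.09 ± 0.20 (log2 ± SE, guides minus hairpins, adjusted p = 0.000129) for HOXD13, 0.77 ± 0.23 for HOXC9, -0.73 ± 0.24 for HOXB13, -0.51 ± 0.09 for HOXC4 and -0.42 ± 0.11 for HOXA13 (adjusted p = 0.010004, 0.0168, 0.000127 and 0.00402). HOXC9 gave -0.52 and -0.57 with the hairpins and 0.32 and 0.14 with the guides. HOXD13 gave 0.07 and -1.67, then -0.05 and 0.63 in the same order. HOXB13 gave 0.14 and 0.78, then -0.58 and 0.07. HOXC4 gave 0.31 and 0.23, then -0.59 and 0.12, and HOXA13 gave 0.19 and 0.07, then -0.52 and -0.07. A difference of means thus does not show that both constructs of a kind moved alike. By the genotype field 6 HOX genes passed, and of the genes named here HOXB13 and HOXC4 did not. The share of 10 in 31 lies below the background.

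The 2 WiDr controls, which received different vectors, were not alike. In the guide control 18 of 31 HOX genes were higher and 4 lower than in the hairpin control, where 62.3% of all genes passed (31.1% higher, 31.2% lower). The share higher stands above its background and the share lower below it, with a median HOX log2 difference of 0.37. HOXA3 was at 31.5, 31.5 and 32.8 CPM against 20.4, 18.8 and 19.8 CPM, HOXA13 at 19.9, 20.8 and 21.9 against 11.3, 10.9 and 12.7, and HOXB2 at 1.72, 1.68 and 1.69 against 0.419, 0.502 and 0.3904. These 3 genes, named after their values were seen, did not overlap between the controls and gave 0.68 ± 0.06, 0.82 ± 0.07 and 1.92 ± 0.25 on the log2 scale (adjusted p = 2.55e-08, 3.77e-08 and 2.97e-06). HOXA10 was at 75.3 ± 1.65 against 57.03 ± 1.77 CPM and HOXB8 at 40.6 ± 1.13 against 27.2 ± 0.889 CPM, both higher in the guide control. HOXC4 was at 32.7 ± 2.67 CPM and HOXC8 at 3.09 ± 0.04899 CPM there. For HOXA4 (-0.66), HOXB5 (0.24) and HOXB7 (0.37) the sign turned with the summed reads, to 0.51 for the HOXA3 set and -0.03 for the HOXB4 to HOXB7 set. Of the 22 calls, 12 held in every alternative. Vector, culture and library preparation cannot be told apart here.

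The noncoding RNAs of the clusters are transcribed between and across the HOX genes, and 17 of 24 listed were in the table. In PANC-1 6 of 11 tested fell and none rose with each hairpin group, where 14% and 16.7% of all genes were lower, with a median log2 fold change of -0.53 and -0.77. HOTAIR, an RNA of the HOXC cluster, fell, with log2 fold changes of -0.61 and -0.77. HOTAIRM1, at the low-numbered end of HOXA, fell, with log2 fold changes of -1.19 and -1.32, and HOXA-AS2, beside HOXA3, gave -1.85 and -2.09. HOTAIRM1 went from 22.8 ± 6.94 CPM in the control to 9.89 ± 2.09 and 9.08 ± 0.533 CPM. In WiDr the hairpins raised 3 and 4 and lowered 2 and 2 of 11, where 48% and 44.7% of all genes passed, so the totals lie near the background. HOTTIP, at the HOXA13 end, was at 0.56 and 0.41 and HOTAIR at -0.49 and -0.29. Guide 1 raised 1 and lowered 5 of 11, and guide 2 lowered 1, where 41.6% and 25.5% of all genes passed. HOTAIR gave -0.72 and -0.26. In MDA-MB-468 0 of 6 passed with either hairpin, where 2.27% and 3.49% of all genes passed. The PANC-1 control was higher than MDA-MB-468 for 12 of 15 tested and lower for none, where 34.8% of all genes were higher and 34.7% lower.

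The TALE homeodomain proteins PBX, MEIS and PKNOX bind DNA together with HOX proteins. In PANC-1 1 of 8 rose and 1 fell with hairpin 1, and 1 rose and 2 fell in the libraries labelled hairpin 2, against 30.2% and 33.4% of all genes called. MEIS2 fell, with log2 fold changes of -1.12 and -1.001, from 18.4 ± 1.52 CPM to 8.43 ± 0.4803 and 9.16 ± 0.153 CPM. The list's median log2 fold change was -0.04 and -0.22. In WiDr 4 rose and none fell with hairpin 1, and 3 rose and 1 fell with hairpin 2, so 4 of 8 passed with each, near the background of 48% and 44.7%, at medians of 0.08 and 0.02. PBX3 rose by 0.64 and 0.63. With guide 1 none rose and 2 fell, and with guide 2 2 rose and 1 fell, against 41.6% and 25.5% of all genes. In MDA-MB-468 0 of 7 passed with either hairpin, where 2.27% and 3.49% of all genes passed.

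CDX factors and retinoic acid switch HOX genes on. CDX2, the intestinal CDX gene, had 0 counts in the MDA-MB-468 control, 10.8 ± 1.28 CPM in the PANC-1 control and 2.96 ± 0.334 CPM in the WiDr hairpin control. In PANC-1 it fell, with log2 fold changes of -0.94 and -1.13, to 5.57 ± 1.07 and 4.89 ± 0.2003 CPM, while 3 of the 10 tested genes of this list rose and 1 fell with hairpin 1, and 2 rose and 2 fell in the libraries labelled hairpin 2, where 30.2% and 33.4% of all genes passed. The list's medians were -0.05 and -0.05. The retinoic acid receptor RARG gave 0.61 and 0.44 there. In WiDr 4 rose and 5 fell with hairpin 1 and 3 rose and 3 fell with hairpin 2, where 48% and 44.7% of all genes passed. With guide 1 3 of 11 rose and 2 fell and with guide 2 2 rose and 1 fell, near the background of 41.6% and 25.5%. ALDH1A3, which makes retinoic acid, gave -2.59 and -1.29 with the hairpins and 1.59 with guide 1.

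The Polycomb group silences HOX clusters and the trithorax group keeps them active. Of 29 Polycomb genes, 6 rose and 1 fell with hairpin 1 in PANC-1, and 7 rose and 4 fell in the libraries labelled hairpin 2, where 30.2% and 33.4% of all genes passed. The list's medians were 0.00 and 0.09. CBX2 gave 0.66 and KDM2B 0.51 with hairpin 1. In WiDr 5 rose and 10 fell with hairpin 1 and 8 rose and 6 fell with hairpin 2, so the totals of 15 and 14 of 29 lie near the background of 48% and 44.7%. EZH2, the methyltransferase of Polycomb complex PRC2, rose by 0.77 and 0.71. Guide 1 raised 4 and lowered 9, and guide 2 raised 1 and lowered 9, where 20.3% and 11.3% of all genes were lower. In MDA-MB-468 1 rose with hairpin 2 and none with hairpin 1, where 3.49% and 2.27% of all genes passed. Of 18 trithorax-related genes, none passed with hairpin 1 in PANC-1 and 1 rose and 1 fell in the libraries labelled hairpin 2. WiDr hairpins raised 2 and lowered 3, then raised 8 and lowered 2, and the guides raised 2 and lowered 3, then raised none and lowered 2. These totals lie below the background of 48%, 41.6% and 25.5% except with WiDr hairpin 2, where 44.7% of all genes passed. KDM6B, a demethylase of the Polycomb mark, gave 0.52 with hairpin 2.

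The genes that flank the clusters lie beside the HOX genes on the chromosome. Of 19 tested in PANC-1, 2 rose and 2 fell with hairpin 1, and 3 rose and 3 fell in the libraries labelled hairpin 2, below the background of 30.2% and 33.4%. The list's medians were 0.00 and 0.00. SKAP1, which borders HOXB, rose by 1.88 and 2.07, from 0.646 ± 0.184 to 2.37 ± 0.137 and 2.695 ± 0.185 CPM, while 0 HOXB genes passed with both. In WiDr 8 rose and 6 fell with hairpin 1 and 5 rose and 3 fell with hairpin 2, where 48% and 44.7% of all genes passed. With guide 1 5 rose and 4 fell, and with guide 2 3 rose and 2 fell, near the background of 41.6% and 25.5%. SNX10, near HOXA, fell, with log2 fold changes of -2.02 and -1.40 with the hairpins and -0.83 and -1.09 with the guides. In MDA-MB-468 none of 18 passed with hairpin 1 and 1 fell with hairpin 2, where 2.27% and 3.49% of all genes passed.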

How the data were processed

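Expected counts per gene were deposited by the authors for 36 libraries. Per the submitters' processing notes they come from Bowtie2 2.1.0 and RSEM 1.2.15 on hg38, with annotation and strand setting not given in the sources used here. They were rounded to whole counts. Library totals ran from 28371119 to 49237321 counts. The gene addressed by the constructs and some other genes are not reported here by name, and counts over genes include them.

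Each experiment was fitted with edgeR 4.0.16 in R 4.3.3 (filterByExpr, TMM scaling, robust quasi-likelihood F test), the controls of the lines were fitted together, and the effects of guides and hairpins were compared as an interaction. P values were adjusted by Benjamini-Hochberg over all genes of a fit, and a gene passed under 0.05. The standard error is the log2 fold change divided by the square root of F. The filter left 21 HOX genes in MDA-MB-468, 32 in PANC-1, 29 in WiDr with hairpins and 31 with guides. Levels are TMM-scaled CPM on 1 scale over all libraries. Levels per kilobase use the length of a principal GENCODE 29 transcript, found for all 39 genes. A floor is 3 counts and covers counting error only. On simulated data the code recovered most of the largest changes put in, and its recovery of smaller changes is not given here. Python 3.11.15 with pandas 2.3.3 was used for descriptions and figures.

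Named HOX genes are those at 1 CPM or more in a control (library values for 12), those that passed with both constructs in 1 direction (at most 8 per experiment, by the smaller fold change) and the 5 largest interactions. The members, lists and tests were chosen with earlier results of these data known. Alternatives were DESeq2 1.42.0, RLE scaling, no filter, 1 fit of all libraries, the replicate number as a block, the genotype field, the guide control, ribosomal RNA left out, single libraries left out, and summed divided reads, the last chosen after seeing the data. Replicates of a group differed by 3.39 to 177 in chi-square per degree of freedom, above the level of sampling noise.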

Additional observations from a re-analysis of the deposited data

Results flagged for a closer look

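For 10 of 31 tested HOX genes the mean effect of the 2 guides in WiDr differed from that of the 2 hairpins. The difference itself was tested (edgeR's quasi-likelihood interaction, Benjamini-Hochberg over all genes). Of all genes 41.6% passed this test, so the share of HOX genes lies below the background. Of the 10 calls, 5 held in every alternative. The constructs of a kind did not always move alike, as for HOXD13 and HOXB13, whose values for each construct are given above. The differences below are log2 values, guides minus hairpins. Positive differences were 1.09 for HOXD13, 0.77 for HOXC9, 0.27 for HOXB4 and 0.22 for HOXB6. Negative differences were -0.73 for HOXB13, -0.51 for HOXC4, -0.42 for HOXA13, -0.38 for HOXA11, -0.34 for HOXA3 and -0.19 for HOXA10. HOXA3, HOXA10, HOXB4, HOXB6 and HOXC4 take divided reads. For HOXA10 the summed set with HOXA9 gave -0.0945 (adjusted p = 0.180), so its difference did not hold for the summed reads. For the other 4 genes the summed sets passed in the same direction. The difference for HOXB4 passed in 5 of 24 alternatives (adjusted p up to 0.125). The 2 experiments used different vectors and controls, which cannot be told apart from the difference between guides and hairpins.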

How the results depend on the processing

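Of the 13 counts of HOX genes, those of the line comparisons and of PANC-1 with the libraries labelled hairpin 2 stayed within 1.5 times of their value in every alternative. DESeq2 called 1 HOX gene with MDA-MB-468 hairpin 2. One fit of all 36 libraries gave 2 calls with MDA-MB-468 hairpin 1, 4 with hairpin 2, 8 with WiDr hairpin 1 and 2 with guide 2. The genotype field gave 1 call with guide 1, 0 with guide 2 and 6 for the difference between guides and hairpins. Leaving out 1 library at a time gave 0 to 1 call with either MDA-MB-468 hairpin, 7 to 15 with PANC-1 hairpin 1, 8 to 11 with WiDr hairpin 2, 6 to 10 with guide 1 and 1 to 5 with guide 2. RLE scaling, no filter on low counts and ribosomal RNA left out kept all 13 counts within 1.5 times. Leaving out a library also lowers the number of libraries, and the cause of these changes was not tested.

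With the summed reads, which change the feature by construction, 74 of 99 gene results kept their call, 13 lost it and 12 turned sign. The summed log2 values of those that turned were 0.0676 for HOXA9 in PANC-1 libraries labelled hairpin 2, 0.0308 for HOXA6 and -0.0135 for HOXC4 with WiDr hairpin 1, 0.13 for HOXA4 with WiDr hairpin 2 and 0.00694 for HOXC6 with guide 2. Between controls they were 1.44 for HOXA4 and -2.36 for HOXA9 in PANC-1 against MDA-MB-468, -0.0427 for HOXC4 and HOXC5 in WiDr against PANC-1, and 0.51 for HOXA4 and -0.0303 for HOXB5 and HOXB7 in the WiDr guide control against the hairpin control.

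Residuals of same-numbered libraries correlated at -0.22 to 0.64 in MDA-MB-468, -0.67 to 0.13 in PANC-1, -0.15 to 0.07 in WiDr with hairpins and -0.05 to 0.13 in WiDr with guides. Those of other numbers correlated at -0.62 to 0.55, -0.34 to 0.50, -0.11 to 0.14 and -0.13 to 0.07 in the same order. Not every same-numbered pair lay above 0.1, so the numbers were not taken to pair the samples. With the replicate number as a block 9 HOX genes passed with PANC-1 hairpin 1, 11 with the libraries labelled hairpin 2 and 12 with guide 1, and all 13 counts stayed within 1.5 times. HOX genes with too few reads to pass the filter on low counts were not tested in the reported fits.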
